A study of Mus musculus with 9 samples.

Results

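The insulin-like growth factor (IGF) family was examined as the table rows that map to Igf1, Igf2, Igf1r, Igf2r, Igfbp2, Igfbp3, Igfbp4, Igfbp5, Igfbp6 and Igfbp7. Of these 10 genes, 8 had an entry among the 13588 entries of the table, and Igfbp2 and Igfbp6 were without one. The family was selected because Prader-Willi syndrome, in which the Snord116 locus is lost, includes growth deficits, and because Igfbp5 had been seen to be higher in one set of AAV-Cre mice than in AAV-GFP mice. That difference therefore chose the family, and it is described here with values and no test.

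Hypothalamic regions were laser captured from 9 male mice, 10 weeks after viral injection, and each mouse gave its own library. All mice, controls included, were of the line B6(Cg)-Snord116tm1Uta/J on a C57BL/6J background (C57/BL6 in the labels), homozygous for the floxed Snord116 allele, and were between 10 and 12 weeks old when injected into the mediobasal hypothalamus. The 3 AAV-GFP mice received AAV-CMV-GFP and no Cre. The 6 AAV-Cre mice received AAV7-CAG-oCre, in which the CAG promoter drives Cre in any cell type the virus enters. The paper gives this vector at a higher titre than the GFP vector, so comparisons with AAV-GFP also differ in dose and promoter. Effects of Cre, dose and promoter cannot be told apart here. The paper took these 6 mice from a larger set of AAV-Cre mice by high or low weight gain. They are 3 labelled obese and 3 labelled nonobese mice. Mice with gains in between were not included, so these numbers do not show how many AAV-Cre mice became obese. The sample titles contradict the weight labels, since the mice titled as obese carry the nonobese weight label and the reverse, and the labels do not settle which is right. The groups are named here by the weight label, and mice by group and the number in their title.

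IGF1 and IGF2 are small secreted peptides that act through the receptor tyrosine kinase encoded by Igf1r. Igf2r encodes a receptor that binds IGF2 and carries it to lysosomes, and it also sorts lysosomal enzymes. The IGF binding proteins hold the peptides in the extracellular space and limit or prolong their action, until proteases such as PAPP-A and PAPP-A2 cut them. Growth hormone raises Igf1 in liver and other tissues through JAK2 and STAT5, and somatostatin and growth hormone releasing hormone from the hypothalamus set the release of growth hormone.

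The promoter of Igfbp5 is shown because this is the family gene by which the labelled obese mice stood apart, that of Igfbp4 because it is a binding protein whose groups overlapped, and that of Psmb8 because its pattern over the libraries was closest to that of Igfbp5. Each is the 250 bases before the RefSeq transcription start (GRCm38.p6), on the strand of the gene, and capitals mark motif matches.
Igfbp5, chr1:72874866-72875115, minus strand: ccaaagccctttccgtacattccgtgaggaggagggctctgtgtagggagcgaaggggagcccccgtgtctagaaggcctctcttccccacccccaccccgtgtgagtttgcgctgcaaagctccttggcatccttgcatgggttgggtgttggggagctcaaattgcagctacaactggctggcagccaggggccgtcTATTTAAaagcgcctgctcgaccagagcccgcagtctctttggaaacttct
Igfbp4, chr11:99040994-99041243, plus strand: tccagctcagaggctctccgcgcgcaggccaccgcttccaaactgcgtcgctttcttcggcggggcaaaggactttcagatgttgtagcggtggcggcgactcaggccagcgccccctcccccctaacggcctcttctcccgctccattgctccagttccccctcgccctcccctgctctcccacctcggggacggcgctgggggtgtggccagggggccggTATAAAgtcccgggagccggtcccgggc
Psmb8, chr17:34197945-34198194, plus strand: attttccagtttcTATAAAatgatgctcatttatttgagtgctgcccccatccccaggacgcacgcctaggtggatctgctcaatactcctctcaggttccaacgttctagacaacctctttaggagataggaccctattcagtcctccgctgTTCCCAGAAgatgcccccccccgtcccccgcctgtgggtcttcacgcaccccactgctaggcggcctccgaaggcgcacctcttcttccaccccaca
The motifs searched on both strands were the TATA box (TATAAA), the CCAAT box, the GC box (GGGCGG), the E box (CACGTG), the cAMP response element (TGACGTCA), the interferon gamma activated site (TTCNNNGAA) and the interferon stimulated response element, and the run TATTTAA was added after the Igfbp5 sequence had been seen. In Igfbp5 the match was TATTTAA, 51 to 45 bases before the start, a run held by 4.18% of the 32851 RefSeq promoters of the same length. In Igfbp4 the match was TATAAA, 28 to 23 bases before the start, and 12.4% of promoters hold it. The Psmb8 window held TATAAA 237 to 232 bases before the start and TTCCCAGAA, a match to TTCNNNGAA, 97 to 89 bases before it. That motif is in 7.02% of promoters and the interferon stimulated response element is in 2.98%. Neither was found in any of the 14 windows of the 10 family genes, which says only that these letters are not in these windows. The GC content of the Igfbp5 window was 58.8%, against a median of 52.4% over all promoters.

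Signal, the unit of the deposited table, is close to CPM with a further scaling between libraries, and 3 reads corresponded to a signal of 0.525 to 0.786. Libraries had between 3929672 and 5766994 reads. AAV-Cre mice held 1011 to 37704 reads of the cre entry and AAV-GFP mice 0 to 5, while the gfp entry had 317 to 350 reads in AAV-GFP mice and 0 in AAV-Cre mice. Snord116 was not analysed here, so its deletion was not measured. Of 11 marker genes of the mediobasal hypothalamus, 10 had an entry, but Nr5a1, a marker of the ventromedial nucleus, had 0 reads in AAV-GFP mouse 3, mice 1 and 3 labelled obese and mouse 3 labelled nonobese. Its signal was 15.2 to 46.1 in the other mice, so every group held regions with and without it.

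Mice 1 and 3 labelled obese stood apart from the other 7 libraries. Over the 6 lymphocyte and plasma cell markers with an entry (of 8), the summed signal was 2701 and 4895 in these mice, 69.0 in mouse 2 labelled obese, 4.49 to 5.36 in AAV-GFP mice and 29.8 to 39.3 in labelled nonobese mice. Over the 9 interferon response genes with an entry (of 10) it was 2734 and 2106 in mice 1 and 3 labelled obese, 122 in mouse 2, 80.4 to 173 in AAV-GFP mice and 87.1 to 101 in labelled nonobese mice. The summed signal of 8 microglial markers was 474 and 414.5 in mice 1 and 3, against 119 to 164 in the other 7 libraries. The signal of cre was also lowest in these mice among the AAV-Cre mice, at 1330 and 235 against 4644 to 8557. Results that include the labelled obese mice are therefore also given with mouse 2 as their only labelled obese library, an alternative chosen after the values were seen. In those fits the single mouse is assumed to vary like the mice of the other groups, which supply the spread, so only log2 FCs with their SE are given.

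Per length, Igfbp5 had the highest level of the family in AAV-GFP mice, with a signal per kb of exons of 17.5 ± 2.005 (SD, n = 3). It was followed by Igfbp7, which encodes a vascular secreted protein with low affinity for IGFs, at 8.67 ± 2.62, and Igf2r at 7.69 ± 0.719, and then by Igf2 at 4.53 ± 0.705. Igfbp3 was at 2.33 ± 2.42 signal per kb, Igfbp4 at 2.25 ± 0.714, Igf1r at 1.67 ± 0.401 and Igf1 at 0.376 ± 0.287. The ranges over the 3 mice were apart between Igfbp5 and Igfbp7, between Igf2r and Igf2, and between Igf1r and Igf1. The other neighbours in this order overlapped. All genes were measured in the same 3 libraries, and the order is a description.

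**Figure D1:**
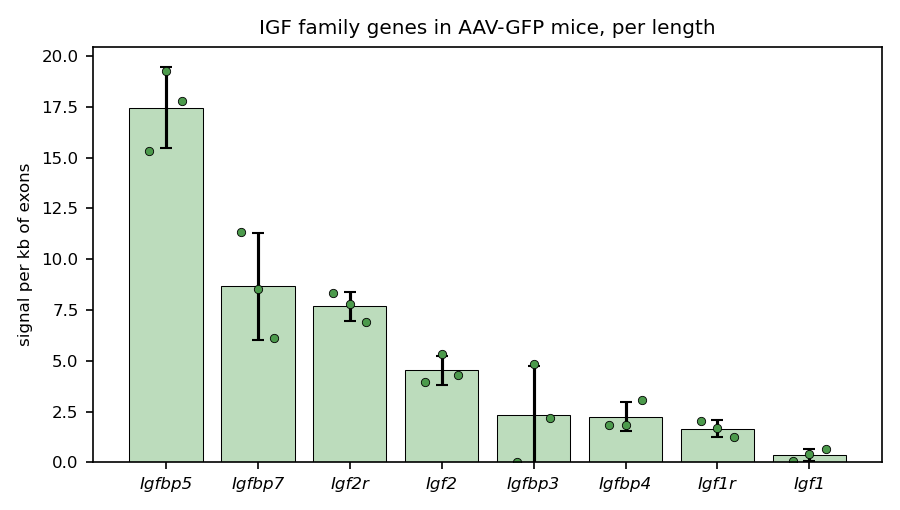
Signal per kb of exons (vertical axis) of the 8 family genes in AAV-GFP mice; bars are means over 3 mice, error bars are SD and points are single mice, with bars that would pass below 0 ending at 0. Igfbp5 was highest at 17.5 and Igf1 lowest at 0.376.

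Igf1 (chr10:87858265-87937042, plus strand, GRCm38), the ligand that growth hormone controls, was the lowest of the family per length, with 2 to 60 reads per library. Its signal was 0.748, 4.02 and 6.41 in AAV-GFP mice 1, 2 and 3, 6.30, 2.72 and 11.6 in labelled obese mice, and 10.5, 1.31 and 0.427 in labelled nonobese mice. AAV-GFP mouse 1 and mouse 3 labelled nonobese, with 3 and 2 reads, were at or under the floor. The groups overlapped, and mice of the same group differed by more than the group means did.

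Igf2 (chr7:142650766-142666816, minus strand) encodes the ligand of both receptors and is expressed from the paternal allele in most tissues. Its signal was 22.7, 30.4 and 24.7 in AAV-GFP mice, 83.9, 12.3 and 54.6 in mice 1, 2 and 3 labelled obese, and 16.1, 8.91 and 13.9 in labelled nonobese mice. All 3 labelled nonobese mice were below all 3 AAV-GFP mice, while the labelled obese mice lay on both sides of the AAV-GFP mice. The labelled obese mice that were high in Igf2 were mice 1 and 3, the same mice that were high in the lymphocyte and interferon lists. The annotation gives 62.8% of the Igf2 exons also to the gene model Gm49394 on the same strand, so reads there cannot be assigned to Igf2 alone.

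Igf1r (chr7:67952827-68233668, plus strand) varied least of the family over the 9 libraries, with an SD of 0.27 on the log2(signal + 1) scale. Its signal was 34.4, 28.5 and 21.0 in AAV-GFP mice, 18.2, 27.7 and 21.8 in labelled obese mice, and 29.6, 25.4 and 26.7 in labelled nonobese mice, so that the 3 groups overlapped. Igf2r (chr17:12682406-12769664, minus strand) had an SD of 0.28 on that scale. Its signal was 77.8, 72.4 and 64.5 in AAV-GFP mice, 65.7, 94.4 and 121 in labelled obese mice, and 68.8, 73.9 and 79.6 in labelled nonobese mice. Mice 2 and 3 labelled obese were above the other 7 libraries and mouse 1 was within their range. The ratio of Igf2r to Igf1r, each as signal per kb, was 4.08, 4.58 and 5.545 in AAV-GFP mice, 6.503, 6.15 and 9.96 in labelled obese mice, and 4.195, 5.24 and 5.38 in labelled nonobese mice. This ratio was higher in the 3 labelled obese mice than in the other 6, a pattern described after the values were seen.

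Igfbp5 (chr1:72857932-72874884, minus strand) encodes a secreted binding protein that also attaches to extracellular matrix and is cut by PAPP-A2. Its signal was 92.0, 115.9 and 107 in AAV-GFP mice, 306, 171 and 321 in mice 1, 2 and 3 labelled obese, and 119, 121 and 85.6 in labelled nonobese mice. The 3 labelled obese mice were above all the other mice, mouse 2 by the smallest margin, and the AAV-GFP mice and the labelled nonobese mice overlapped. These values rest on 369 to 1380 reads. Igfbp5 made up 53.7 to 61.0% of the summed signal per kb of the 5 binding proteins in AAV-GFP mice, 73.3 to 80.15% in labelled obese mice and 56.5 to 73.3% in labelled nonobese mice.

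Igfbp3 (chr11:7206086-7213923, minus strand), the main carrier of IGFs in serum together with the acid labile subunit, varied most over the 9 libraries, with an SD of 1.31 on the log2 scale. Its signal was 0, 15.1 and 6.80 in AAV-GFP mice, 8.77, 25.9 and 5.11 in labelled obese mice, and 9.80, 8.38 and 5.12 in labelled nonobese mice. AAV-GFP mouse 1 had 0 reads, which allows a signal of up to 0.748, and no group was apart from another.

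Igfbp4 (chr11:99041244-99054392, plus strand), which PAPP-A cuts when IGF is bound, had a signal of 8.23, 8.04 and 13.6 in AAV-GFP mice, 12.1, 5.22 and 11.2 in labelled obese mice, and 7.17, 5.24 and 15.6 in labelled nonobese mice. The groups overlapped over nearly their whole range. Igfbp7 (chr5:77349240-77408041, minus strand) had a signal of 13.7, 10.3 and 7.38 in AAV-GFP mice, 8.55, 1.13 and 13.2 in labelled obese mice, and 3.67, 4.19 and 7.04 in labelled nonobese mice. The labelled nonobese mice were below the AAV-GFP mice, and mouse 2 labelled obese had the lowest value, from 5 reads. Of the Igfbp7 exons, 7.03% overlap Polr2b on the opposite strand.

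**Figure D2:**
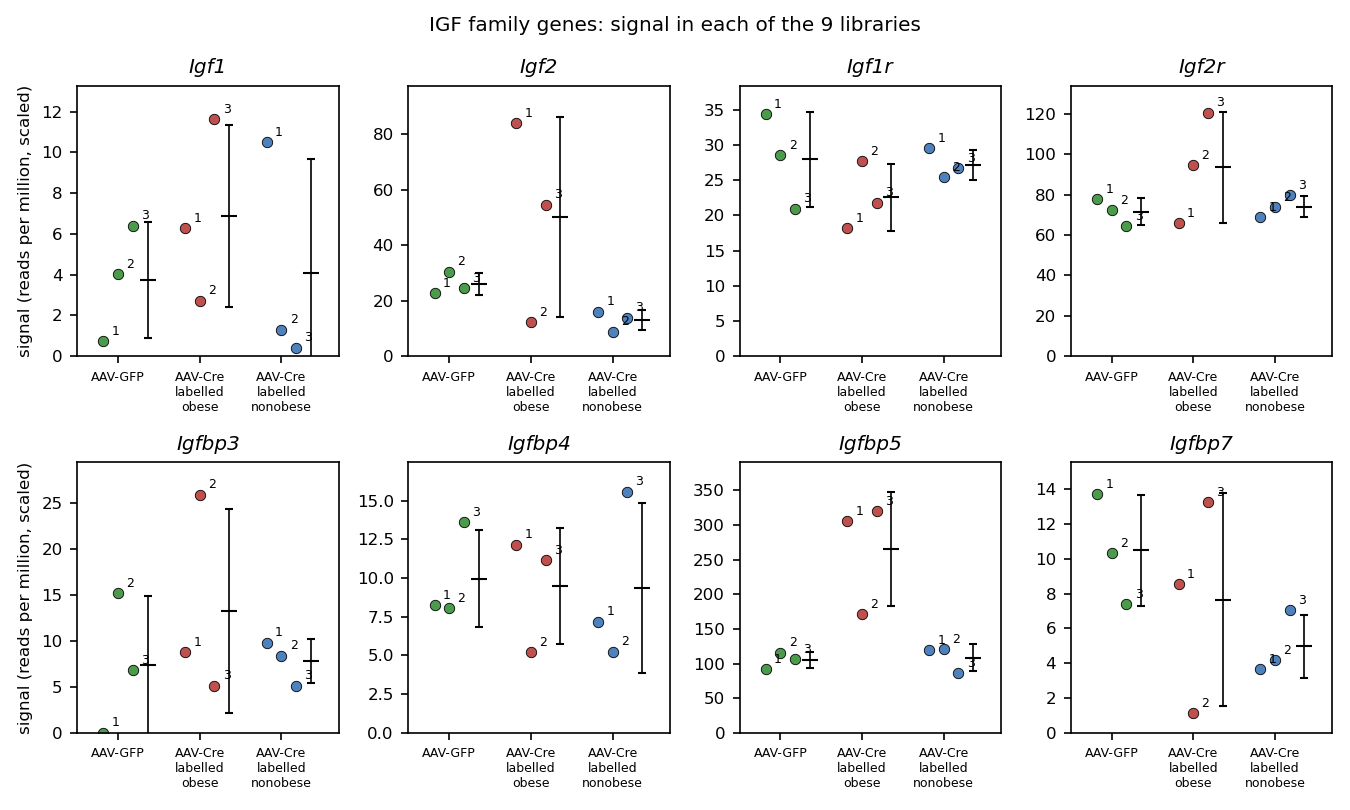
Signal (vertical axis, CPM with a scaling between libraries) of each family gene in the 9 libraries; points are mice, numbered by replicate, and short lines with bars are group means ± SD (n = 3), with bars that would pass below 0 ending at 0. The Igfbp5 values of the 3 labelled obese mice (171 to 321) lie above those of the other 6 mice (85.6 to 121).

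The contrast of labelled obese mice with AAV-GFP mice chose the family, and its values are given as a description. The log2 fold change (log2 FC, on the log2(signal + 1) scale, which understates changes of low genes) was 1.29 for Igfbp5 (SE 0.23), a fold of 2.44. It was 1.225 for Igfbp3 (SE 0.84), 0.80 for Igf1 (SE 0.91), 0.57 for Igf2 (SE 0.51) and 0.34 for Igf2r (SE 0.25). It was -0.10 for Igfbp4 (SE 0.63), -0.29 for Igf1r (SE 0.38) and -0.76 for Igfbp7 (SE 0.74). Igfbp5 was the 1 gene of the 8 whose groups did not overlap, all labelled obese mice being higher, where 7.18% of all 13506 entries tested were higher and apart in this way and 14.5% in either direction. The median log2 FC was 0.46 over the 8 genes and -0.04 over all entries. In these bulk samples fewer cells of a type and less RNA per cell cannot be told apart.

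With mouse 2 as the only labelled obese mouse, the log2 FC against AAV-GFP was 0.71 for Igfbp5 (SE 0.28), -1.01 for Igf2 (SE 0.61), -2.39 for Igfbp7 (SE 0.92) and 2.42 for Igfbp3 (SE 1.10). The other values were 0.40 for Igf2r (SE 0.31), 0.01 for Igf1r (SE 0.48), -0.11 for Igf1 (SE 1.26) and -0.78 for Igfbp4 (SE 0.84). The values of Igf2, Igf1 and Igf1r thus had the opposite sign without mice 1 and 3, those of Igf1 and Igf1r within their SE. That of Igfbp5 was smaller with the same sign. Leaving out each mouse in turn gave 1.13 to 1.58 for Igfbp5 and 0.02 to 1.36 for Igf2. Both genes had their highest value without mouse 2 labelled obese. The lowest was without mouse 3 labelled obese for Igfbp5 and without mouse 1 labelled obese for Igf2. For Igfbp3 the value was 0.06 without AAV-GFP mouse 1, which had 0 reads, and for Igfbp7 it was 0.06 without mouse 2 labelled obese.

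Several marker lists separated the 3 labelled obese mice from the other 6, as Igfbp5 did, though not always in the same order of mice. The summed signal of the endothelial markers was 163.6 in mouse 2 labelled obese and 152.8 in mouse 1, whereas Igfbp5 was lower in mouse 2. No correlation of a list with Igfbp5 was computed. The summed signal was higher in the 3 labelled obese mice than in the other 6 mice for endothelium, at 153 to 186 against 82.3 to 142, and for tanycytes and ependyma, at 108 to 219 against 46.4 to 90.2. It was also higher for microglia and for lymphocytes and plasma cells, whose values are given above, and it was lower for oligodendrocytes, at 887 to 1148 against 1238 to 2699. Within these lists few genes separated the mice in this way, 1 of 8 endothelial genes (Pecam1), 1 of 6 tanycyte and ependymal genes (Lhx2) and 1 of 8 microglial genes. It was 2 of 6 lymphocyte and plasma cell genes and 2 of 8 oligodendrocyte genes. Vim gave 131.6 of the tanycyte and ependymal sum of 219 in mouse 1 labelled obese and 99.2 of 132 in mouse 3. In mouse 2 it gave 24.3 of 108, and Vim was 11.3 to 28.35 in the other 6 mice. All 8 astrocyte markers had an entry, and their summed signal overlapped, at 2366 to 3158 in labelled obese mice, 1987 to 2448 in AAV-GFP mice and 1820 to 2452 in labelled nonobese mice. Of these, 4 were higher in all labelled obese mice than in the other 6, namely Gfap, Aqp4, Aldh1l1 and Sox9, and 4 overlapped, namely Slc1a2, Slc1a3, Gja1 and S100b. The share of all entries that set these mice apart from the other 6 was not computed, so the counts for the lists are a description. The intermediate filament gene Gfap had the widest separation, with 369, 129.8 and 640.1 in labelled obese mice against 10.1 to 83.0 in the other mice, whereas S100b had 25.0, 33.4 and 24.6 against 28.9 to 57.6. The part of these transcripts in the Igfbp5 and Igf2 values was not tested.

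**Figure D3:**
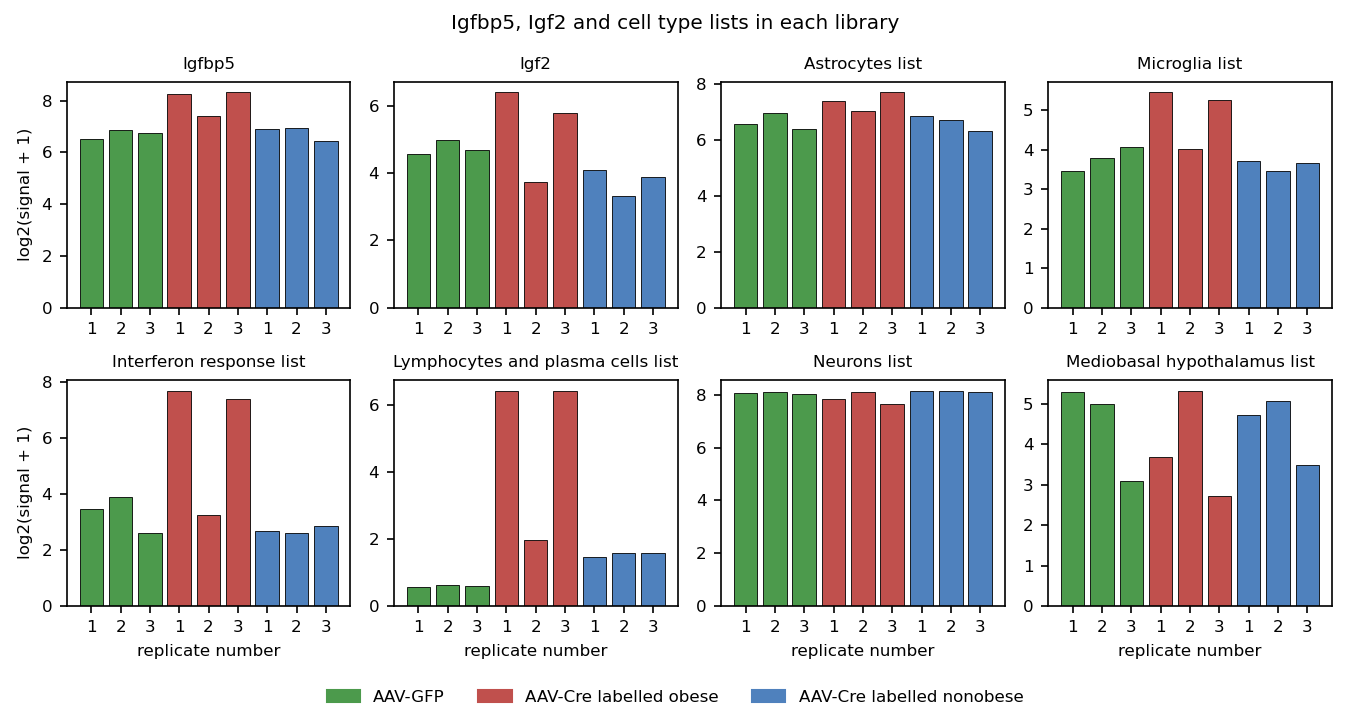
log2(signal + 1) of Igfbp5 and Igf2, and mean log2(signal + 1) of 6 marker lists (vertical axes), in each library, with replicate numbers on the horizontal axis and colours for the groups. Igfbp5 is high in all 3 labelled obese mice, whereas Igf2 and the interferon (7.71 and 7.41) and lymphocyte (6.41 and 6.42) lists are high in mice 1 and 3 only among the 9 libraries.

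The labelled nonobese mice against AAV-GFP is the comparison whose Cre mice did not choose the family, although its AAV-GFP mice did. With limma and Benjamini-Hochberg adjustment over 13506 entries, 0 of the 8 genes passed an FDR of 0.1, where 0.0148% of all entries did (2 entries). None had an unadjusted p under 0.05, where 2.27% of all entries did, and edgeR and DESeq2 on the recovered reads also called 0 of 8. Igf2 had the lowest p, with a log2 FC of -0.97 (SE 0.51, limma FDR = 0.999), which corresponds to a 1.965-fold lower value. Igfbp7 had a log2 FC of -0.95 (SE 0.74, limma FDR = 0.999). These were the 2 genes of the 8 whose groups did not overlap, both lower in the labelled nonobese mice, where 5.15% of all entries were lower and apart.

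Igfbp5 had a log2 FC of 0.04 in this comparison (SE 0.23, limma FDR = 0.999), so the labelled nonobese mice differed from AAV-GFP mice by less than the spread between mice. The other values were 0.77 for Igfbp3 (SE 0.84), 0.05 for Igf2r (SE 0.25), -0.01 for Igf1r (SE 0.38), -0.18 for Igfbp4 (SE 0.63) and -0.26 for Igf1 (SE 0.91). Leaving out AAV-GFP mouse 1, which had no Igfbp3 read, gave -0.395 for Igfbp3. The 5 markers of leptomeninges and fibroblasts with an entry (of 9), cells known for high Igf2, had a summed signal of 46.1 to 96.9 in the labelled nonobese mice, 92.6 to 372 in AAV-GFP mice and 74.0 to 145 in labelled obese mice, and most of it came from Ptgds (337 of 372 in AAV-GFP mouse 1). The collagen gene Col1a2 had 21.15, 12.7 and 15.8 in labelled obese mice, 4.99 to 8.545 in AAV-GFP mice and 1.92 to 7.0 in labelled nonobese mice. Col1a1 had, in the same order of groups, 13.3, 7.49 and 16.3, 3.06 to 5.735 and 0 to 10.85. Dcn had 13.05, 5.67 and 9.99, 6.32 to 16.95 and 2.35 to 6.29, and Col3a1 had 4.275, 0 and 8.60, 0.583 to 6.98 and 0 to 4.375. For Dcn and Col3a1 the labelled obese mice thus overlapped the AAV-GFP mice. The part of these transcripts in the Igf2 values was not tested.

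The AAV-Cre subsets were compared with each other as a description, since the same labelled obese mice chose the family. The log2 FC of nonobese minus obese was -1.25 for Igfbp5 (SE 0.23), the 1 gene of the 8 whose subsets did not overlap, lower in the labelled nonobese mice where 6.65% of all entries were lower and apart. It was -1.545 for Igf2 (SE 0.51) and -1.06 for Igf1 (SE 0.91), and between -0.46 and 0.28 for the other 5 genes. With mouse 2 as the only labelled obese mouse the value was -0.67 for Igfbp5 (SE 0.28) and 0.04 for Igf2 (SE 0.61). It was 1.44 for Igfbp7 (SE 0.92), 0.60 for Igfbp4 (SE 0.84) and -0.03 for Igf1r (SE 0.48). For Igf2 and these 3 genes the sign was thus opposite. It was -0.15 for Igf1 (SE 1.26), -0.35 for Igf2r (SE 0.31) and -1.66 for Igfbp3 (SE 1.10), with the sign kept. With both AAV-Cre subsets averaged and set against AAV-GFP, log2 FCs were 0.66 for Igfbp5 (SE 0.20), -0.20 for Igf2 (SE 0.44), 0.996 for Igfbp3 (SE 0.73; -0.17 without AAV-GFP mouse 1) and -0.85 for Igfbp7 (SE 0.64), and 0 of the 8 genes had groups apart, where 2.01% of all entries did. The 3 comparisons with AAV-GFP share their control mice.

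**Figure D4:**
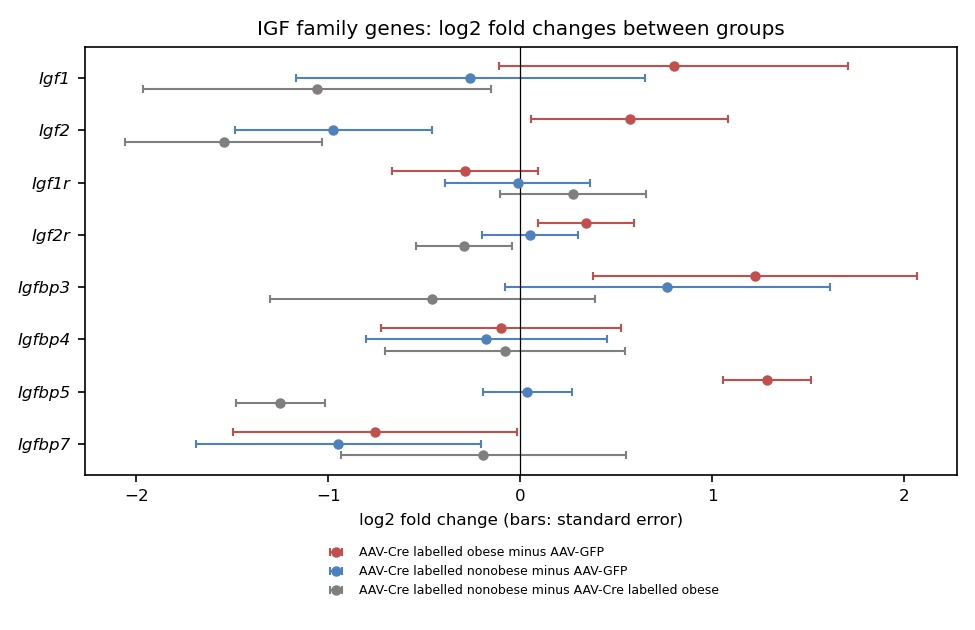
Log2 fold changes (horizontal axis, log2(signal + 1) scale) of the 8 family genes in 3 comparisons, with bars for the standard error. Igfbp5 is at 1.29 in labelled obese mice minus AAV-GFP, 0.04 in labelled nonobese mice minus AAV-GFP and -1.25 in labelled nonobese mice minus labelled obese.

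The genes whose log2(signal + 1) followed that of Igfbp5 most closely over the 9 libraries, among 9703 entries with a symbol and a mean signal of at least 10, were Psmb8 (Pearson's r 0.985, Spearman's rho 0.917), Parp14 (r 0.984, rho 0.917), Lcp1 (r 0.9795, rho 0.917), Ifi47 (r 0.971, rho 0.785) and Ogfr (r 0.969, rho 0.85). Psmb8, a subunit of the immunoproteasome, had a signal of 109, 12.5 and 143 in mice 1, 2 and 3 labelled obese, 2.74 to 6.13 in AAV-GFP mice and 1.28 to 4.90 in labelled nonobese mice. Like Igfbp5, it was above the other groups in mouse 2 and far above them in mice 1 and 3. Lcp1, an actin bundling protein of leukocytes, had 95.4, 27.5 and 93.2 in labelled obese mice and 11.7 to 22.3 in the other mice. These correlations are a description over 9 points that share 2 libraries standing far apart.

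For Igfbp3, the family gene with the largest SD, the closest patterns were those of Fam135a (r 0.945, rho 0.867), Nfe2l1 (r 0.931, rho 0.833), Lypla1 (r 0.931, rho 0.817), Oxtr (r 0.916, rho 0.733) and Mut (r 0.915, rho 0.717). Oxtr, the oxytocin receptor, had a signal of 3.99 in AAV-GFP mouse 1, where Igfbp3 had no read, and 12.8 to 22.9 in the other 8 libraries. The values of Nfe2l1, a transcription factor, were 129 in that mouse and 209 to 273.5 elsewhere. The 9 points of these correlations share AAV-GFP mouse 1, which was lowest for each of these genes.

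Of 72 other genes of the IGF pathway, 62 had an entry and all were tested. In labelled obese mice against AAV-GFP, 0 were higher and 1 was lower at an FDR of 0.1 with limma, where 0.422% of all entries were higher and 0.133% lower, and 5 of 62 had an unadjusted p under 0.05, as did 9.88% of all entries. The gene that fell was Prlr, the prolactin receptor, which signals through JAK2 and STAT5 as the growth hormone receptor does. Its signal was 114, 79.7 and 68.2 in AAV-GFP mice, 36.45, 33.1 and 12.8 in labelled obese mice, and 65.1, 122 and 50.15 in labelled nonobese mice. All labelled obese mice were below all the others, with a log2 FC of -1.73 (SE 0.36, limma FDR = 0.0332).

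The log2 FC of Prlr kept its sign under every alternative run, while its FDR did not stay under 0.1 in each. It was -1.73 without a variance trend (limma FDR = 0.416), -1.52 without AAV-GFP mouse 1 (FDR = 0.294) and -1.27 without mouse 3 labelled obese (FDR = 0.205). With mouse 2 as the only labelled obese mouse it was -1.34 (SE 0.40). Without mouse 2 the number of pathway genes called was 4, and the share of all entries called in that fit is not given here. Kl and Clic6, the 2 of 8 choroid plexus markers with an entry, a tissue known for high Prlr, had a summed signal of 16.7 to 31.8 in labelled obese mice, 31.5 to 41.9 in AAV-GFP mice and 12.6 to 33.95 in labelled nonobese mice, and their part in the Prlr values was not tested. The growth hormone receptor Ghr had a signal of 11.65 to 46.9 in AAV-GFP mice, 26.95 to 50.4 in labelled obese mice and 9.95 to 24.3 in labelled nonobese mice.

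The other pathway genes did not pass the test in labelled obese mice. Among signalling genes, Rptor, which encodes the raptor subunit of mTORC1, had a log2 FC of -0.67 (SE 0.27, limma FDR = 0.401) and the small GTPase gene Hras had -0.63 (SE 0.26, FDR = 0.409). Rptor signal was 74.3 to 89.6 in AAV-GFP mice and 38.35 to 63.0 in labelled obese mice. Grb10, an imprinted adaptor that dampens receptor signalling, had -0.33 (SE 0.18, FDR = 0.552), the somatostatin receptor gene Sstr2 had -1.33 (SE 0.85, FDR = 0.6398) and the protease gene Adamts9 had -1.15 (SE 0.77, FDR = 0.657). Groups did not overlap for 9 of the 62 pathway genes, where 14.5% of all entries were apart in either direction. Rptor, Hras, Grb10 and Sstr2 were among these genes. By role, 0 of 7 extracellular genes, 1 of 4 receptors, 0 of 8 somatotropic genes, 0 of 9 adaptors, 0 of 21 PI3K-AKT-mTOR genes and 0 of 13 RAS-ERK genes passed.

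In labelled nonobese mice against AAV-GFP, 0 of 62 pathway genes passed an FDR of 0.1 with limma, where 0.0148% of all entries did. With edgeR and DESeq2 0 were called too. An unadjusted p under 0.05 was reached by 1 of the 62, where 2.27% of all entries reached it. This gene was Stat5a, which encodes a transcription factor that acts below the growth hormone and prolactin receptors. Its signal was 12.7, 13.6 and 10.1 in AAV-GFP mice, 4.725, 7.72 and 6.74 in labelled obese mice, and 0, 1.83 and 2.13 in labelled nonobese mice. Against AAV-GFP its log2 FC was -2.66 in labelled nonobese mice (SE 0.74, limma FDR = 0.999). Stc1, an inhibitor of PAPP-A, had a log2 FC of 1.66 (SE 0.80, limma FDR = 0.999), with a signal of 5.95 to 11.7 against 1.25 to 3.88. The lowest p among the other roles belonged to Dusp6 with -1.58 (SE 0.80), Shc1 with -1.03 (SE 0.79), Ghr with -0.74 (SE 0.48) and Rptor with -0.46 (SE 0.27).

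In labelled nonobese mice against those labelled obese, Prlr was the 1 of 62 pathway genes that passed, higher in the labelled nonobese mice (log2 FC 1.52, SE 0.36, limma FDR = 0.0569), where 0.215% of all entries were higher and 0.733% lower. The log2 FC of Prlr was 1.52 with edgeR (FDR = 0.107), 1.56 with a pseudocount of 0.1 (FDR = 0.111), 1.52 without a variance trend (FDR = 0.348) and 1.52 with only the groups compared in the fit (FDR = 0.177). Without mouse 1 or 3 labelled obese, or mouse 1 or 2 labelled nonobese, it was 1.06 to 1.78 (FDR 0.132 to 0.315). At an unadjusted p under 0.05 there were 9 of 62 pathway genes, where 11.4% of all entries were. Among them were Mapk3 (log2 FC 0.74, SE 0.29, limma FDR = 0.313), Pdpk1 (0.51, SE 0.22, FDR = 0.372) and Lrp2 (2.075, SE 0.93, FDR = 0.391). Lrp2 had 3, 6 and 0 reads in mice 1, 2 and 3 labelled obese, at or near the floor. The somatostatin gene Sst had a log2 FC of 1.32 (SE 0.53, FDR = 0.321), with a signal of 77.6, 193 and 13.7 in labelled obese mice and 137 to 178 in labelled nonobese mice, and its log2 FC was 2.16 without mouse 2 labelled obese (limma FDR = 0.002075), 0.30 without mouse 3 and -0.35 with mouse 2 as the only labelled obese mouse. With both subsets averaged against AAV-GFP, 0 of 62 passed and 4 had an unadjusted p under 0.05, where 0.0444% and 4.31% of all entries did, and edgeR and DESeq2 called 0. There the 6 AAV-Cre mice were below the 3 AAV-GFP mice for 3 of 62 pathway genes, Stat5a with a log2 FC of -1.75 (SE 0.64), Rptor with -0.56 (SE 0.24) and Hras with -0.56 (SE 0.23), while 2.01% of all entries had groups apart.

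**Figure D5:**
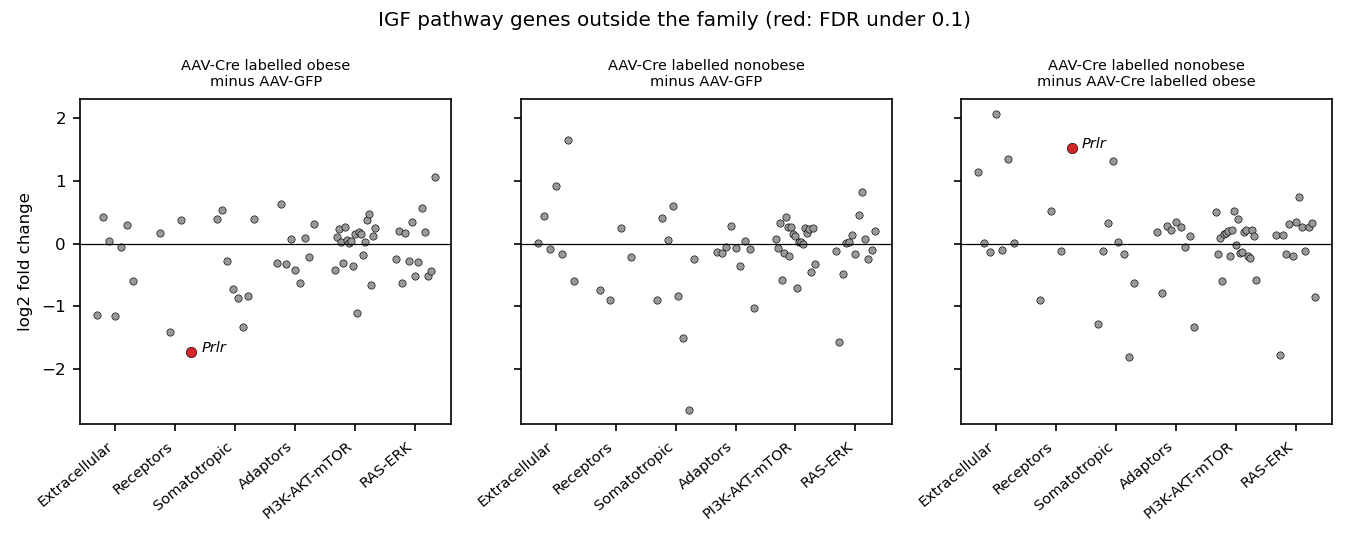
Log2 fold changes (vertical axis) of the 62 other IGF pathway genes, grouped by role (horizontal axis), in 3 comparisons; each point is a gene and red marks an FDR under 0.1. Prlr is at -1.73 in labelled obese mice minus AAV-GFP and at 1.52 in labelled nonobese mice minus labelled obese.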

How the data were processed

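RNA from laser-captured hypothalamic regions of 9 mice was sequenced without pooling. Single-end reads were mapped by the authors with TopHat2 2.0.11 to GRCm38 (CASAVA 1.7, HTSeq, edgeR and limma are also in the submitters' processing notes), and the authors deposited a signal per gene, reads divided by a scaled library size. The strand setting of the counting is not given in the sources used here. All values (100%) came out as whole reads, within 0.02 reads, when divided by the signal that 1 read is worth, so reads were recovered. The median library had 4611358 reads, and no entry had fewer than 50 reads in total. Floors cover counting error only.

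The members and lists were chosen with earlier results of these data known. Log2(signal + 1) was fitted with limma 3.58.1 (R 4.3.3) with a variance trend and all 3 groups in one model, over the 13506 entries that reached a signal of 1 in 3 or more libraries, with Benjamini-Hochberg adjustment and calls at an FDR under 0.1. The design had been written for values in CPM or similar units and the same test was used for signal. The procedure was run on simulated counts with the same spread in all groups and genes changed in the labelled obese group. That simulation held no mice standing apart, so it cannot speak for results that rest on such mice. Its outcome is not given here. Named were all members, in each comparison and sublist the pathway genes under that FDR (at most 3) or else the one with the lowest p, and the 5 genes most like Igfbp5 and most like the member with the largest SD. Alternatives were other pseudocounts (0.1 and 5), other filters, fewer groups in the fit, other scalings, no variance trend, a replicate block, edgeR 4.0.16, DESeq2 1.42.0 and leaving out each mouse. Whether the replicate numbers, which come from the titles and mark different animals, pair the mice was checked by correlating deviations from group means. The correlations were -0.0199 to 0.0897 for mice of the same number and -0.0876 to 0.0396 for mice of different numbers. The labels give no batch or date. Positions and exon lengths come from GENCODE annotation of GRCm38 and promoters from RefSeq (GRCm38.p6). The other experiments of the study were not analysed here.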

Additional observations from a re-analysis of the deposited data

Results flagged for a closer look

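The signal of Sst, the somatostatin gene, in mouse 3 labelled obese was far from the other AAV-Cre mice, at 13.7 against 77.6 to 193.4. The gap to its nearest neighbour was 0.649 of the range over the 6 AAV-Cre libraries on the log2(signal + 1) scale. Of 25 genes examined in this way 1 was marked, where chance alone marks about 1 in 20, or 1.25 of 25.

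Prlr differed between the AAV-Cre subsets, by 1.52 on the log2 scale (nonobese minus obese, limma FDR = 0.0569). It did not pass with edgeR (FDR = 0.107), without a variance trend (limma FDR = 0.348) or when certain mice were left out. The family genes were not tested for differences between the subsets because they had been chosen with those results known.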

How the results depend on the processing

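With 3 mice in a group, values near the floor of 3 reads are the least precise. Examples are Igf1 in some mice, Igfbp3 in AAV-GFP mouse 1 and Lrp2 in labelled obese mice. In mice labelled nonobese against AAV-GFP, 0 family genes were called under every alternative run, and 0 pathway genes in this comparison and with both AAV-Cre subsets averaged against AAV-GFP. Deviations of mice with the same replicate number were close to uncorrelated over all entries, although the highest correlations of all pairs were between mice of the same number. The paper states that the AAV-GFP controls were region-matched, and this correlation cannot decide which mice were matched by region. The replicate block gave 0 family genes in mice labelled nonobese against AAV-GFP.

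In mice labelled obese against AAV-GFP the number of pathway genes called was 1. It was 0 without a variance trend, and leaving out each mouse gave 0 to 4 (4 without mouse 2 labelled obese, 0 without AAV-GFP mouse 1 or mouse 3 labelled obese). In mice labelled nonobese against labelled obese it was 1. It was 0 with a pseudocount of 0.1, with only the groups compared, without a variance trend and with edgeR, and 2 with the replicate block. Leaving out each mouse gave 0 to 4 (4 without mouse 2 labelled obese, 0 without mouse 1 or 3 labelled obese or mouse 1 or 2 labelled nonobese). The shares of all entries called in these alternatives are not given here. With mouse 2 as the only labelled obese mouse the spread comes from the other groups, so no calls are counted there. The log2 FC of Prlr in those fits was -1.34 (obese minus AAV-GFP) and 1.13 (nonobese minus obese). The gene added by the block was Sst (FDR = 0.0575). The causes were not tested.

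The sign of Igf1 in mice labelled nonobese against AAV-GFP was opposite with edgeR (log2 FC 0.14) and DESeq2 (0.13), and that of Sst between the subsets was opposite with mouse 2 as the only labelled obese mouse (-0.35). Leaving out each mouse gave log2 FCs in mice labelled nonobese against AAV-GFP that took both signs for Igf1 (-1.15 to 0.36), Igf1r (-0.20 to 0.14), Igf2r (-0.021 to 0.11), Igfbp3 (-0.39 to 1.61), Igfbp4 (-0.58 to 0.12) and Igfbp5 (-0.053 to 0.20), and was negative throughout for Igf2 (-1.14 to -0.75) and Igfbp7 (-1.18 to -0.75). Using only the groups compared in the fit was not run for the average of both AAV-Cre subsets, since that comparison uses every group.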
